A study of Mus musculus with 9 samples.

Results

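This account follows 9 genes of the interferon response and of MHC class I antigen presentation through chromatin accessibility in mouse brain endothelial cells. They were the interferon receptor gene Ifnar1, the transcription factor genes Irf1 and Irf7, the class I genes B2m, H2-K1, H2-D1 and Tap1, and the antiviral effector genes Ifitm3 and Bst2. Its data were all peaks that the deposited annotation assigned to one of these names, which came to 137 of 253457 peaks, 59 of them in the promoter-TSS class and 78 in other classes. The rule used gene names only and no measured value, but the genes were chosen with earlier results of these data known.

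Accessible chromatin was mapped in nuclei of flow-sorted brain endothelial cells by Omni-ATAC-seq, a method whose transposase inserts adapters where DNA is open. The 4 groups were young WT Cre (2 libraries), young EC-K4KO (3 libraries), old WT Cre (2 libraries) and old EC-K4KO (2 libraries). EC-K4KO mice carried floxed Klf4 and a tamoxifen-inducible Cre driven by the Cdh5 promoter, which is active in endothelial cells generally. WT Cre controls carried the same Cre without floxed Klf4. The line was on the C57BL/6J background, and controls received the same tamoxifen in early adulthood. Mice of both sexes were used in the study as a whole, and neither its ATAC-seq methods nor the library titles gave a sex. The labels gave age only as young or old. The study called its libraries biological replicates, and neither it nor the labels said whether a library came from 1 animal or a pool. P-values therefore measured the spread between these libraries.

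Type I interferon binds a receptor that contains the Ifnar1 chain, and signalling through JAK kinases brings STAT and IRF factors to DNA elements near target genes. The interferon-stimulated response element (ISRE) is read by IRF proteins, and the gamma-activated site (GAS) by STAT dimers. Class I molecules pair an H2 heavy chain with beta-2-microglobulin and carry peptides that the Tap1 and Tap2 pump moves into the endoplasmic reticulum. Brain endothelium is among the cells that raise class I when interferon is present.

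Letters of known response elements lay close to the start of several of these genes. The RefSeq promoter windows (GRCm38.p6, 250 bases before to 50 bases after the start) of all 9 genes were searched on both strands for ISRE (GAAANNGAA), GAS (TTCNNNGAA), NF-kB (GGANTNNCC), a KLF-type element (GGGNGTG) and CRE (TGACGTCA). The stretches below are shown because they hold the matches of the genes whose peaks are followed most closely. They read 5′ to 3′ on the gene's strand, and capitals mark ISRE, GAS or NF-kB letters.
Irf1, chr11:53769864-53770013, plus strand: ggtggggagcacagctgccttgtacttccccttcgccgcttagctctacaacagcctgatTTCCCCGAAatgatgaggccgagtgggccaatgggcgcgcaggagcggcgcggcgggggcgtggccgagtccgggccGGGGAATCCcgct
B2m, chr2:122147537-122147686, plus strand: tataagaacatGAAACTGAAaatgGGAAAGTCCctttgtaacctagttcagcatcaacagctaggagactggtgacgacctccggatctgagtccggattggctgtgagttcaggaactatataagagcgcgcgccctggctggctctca
Bst2, chr8:71537473-71537622, minus strand: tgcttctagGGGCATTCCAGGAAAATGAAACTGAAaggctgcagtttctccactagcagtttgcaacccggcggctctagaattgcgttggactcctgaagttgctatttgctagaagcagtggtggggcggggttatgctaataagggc
H2-K1, chr17:34000439-34000468, minus strand: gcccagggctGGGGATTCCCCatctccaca
H2-D1, chr17:35262913-35262942, plus strand: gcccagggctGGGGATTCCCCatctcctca

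B2m held an ISRE that began at base -139, counted from the start, followed by an NF-kB match that began at -126. In Bst2 an NF-kB match at -141, a GAS match at -136 and ISRE matches at -130 and -124 overlapped in 1 run. The Irf1 capitals were a GAS that began at -90 and an NF-kB match that began at -13. H2-K1 and H2-D1 shared the same palindrome, in which NF-kB letters matched on both strands, at -111 in H2-K1 and at -171 in H2-D1. ISRE letters were in 3 of the 9 windows (B2m, Bst2 and Ifitm3) and in 8.56% of 32851 promoter windows. GAS letters were in 4 (Bst2, Ifitm3, Ifnar1 and Irf1) and in 8.3% of all windows, and NF-kB letters were in 5 (B2m, Bst2, H2-D1, H2-K1 and Irf1) and in 13% of all windows. KLF-type letters were in 5 windows (B2m, Bst2, Irf1, Irf7 and Tap1) against 29.2% of all, and CRE letters in none against 1.79%. A match is a string of letters and not a measured binding site.

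Each library had its own list of peaks, and the lists differed greatly in length. The young WT Cre lists held 6157 and 9598 peaks, the young EC-K4KO lists 23848 to 27992, the old WT Cre lists 43893 and 32555, and the old EC-K4KO lists 45026 and 39079. Read depth was unknown, because the lists carry no read counts, so a missing peak was a peak not called and not a closed site. Library names also began differently for young and old samples, so age and that prefix cannot be told apart. The start-site peak of Klf4 was listed in all 9 libraries, at positions 911 to 5797, and peak lists do not show whether its floxed exons were excised. Of 15 endothelial markers, 8 had a start-site peak in each young WT Cre list. The young EC-K4KO lists had 12 to 14 and the old lists 14 to 15. Cldn5, Cdh5 and Erg were among those with one in all 9. Pecam1, Tek, Sox18, Emcn and Ocln had none in either young WT Cre list, and Sox17 had one only in old EC-K4KO. Peaks beside other cell types' genes were fewer. At most 1 of 15 microglia markers and 2 of 12 markers of other leukocytes had one in any library. Of 10 pericyte and mural markers, 0 had one in the 5 young lists. In old WT Cre 0 and 2 had one, and in old EC-K4KO 5 and 3. Acta2 had one in both old EC-K4KO lists, and Myh11 in those and in old WT Cre 2. Kcnj8 had one in old WT Cre 2 and old EC-K4KO 2, and Pdgfrb, Cspg4 and Tagln in old EC-K4KO 1 only. Rgs5, Abcc9, Notch3 and Anpep were at 0 throughout. Of 8 astrocyte markers 0 to 3 had one in the young lists. In each old WT Cre list 2 had one, and in each old EC-K4KO list 4. Gja1 had one in every list but young WT Cre 1, and Sox9 in every list but that and young EC-K4KO 1. Slc1a2 and Slc1a3 had one in both old EC-K4KO lists, and Slc1a3 also in young EC-K4KO 3. Gfap, Aqp4, Aldh1l1 and S100b were at 0 throughout. Oligodendrocyte and neuron markers numbered 0 to 3 of 8 each, and old EC-K4KO 1 had the most of both.

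The promoters of these genes were open nearly everywhere, and those of Ifnar1, Irf1, B2m, H2-K1, H2-D1 and Tap1 were called in all 9 libraries. The promoter-TSS class missed some of them, since it follows the centre of a peak and the name of the nearest gene. The Irf7 peak was centred in an intron or exon in every library that had it, the Tap1 peak was named for Psmb9 in 4 libraries, and the H2-D1 peak was named for H2-L in young EC-K4KO 1. A start-site peak was therefore also defined, after these labels had been seen, as the strongest peak within 100 bp of a GENCODE or RefSeq start, whatever its name. By the class label only Irf1 and Ifnar1 had a promoter peak in all 9 libraries. By start site 6 of the 9 genes had one, beside 18.1% of 21924 protein-coding genes.

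Irf7, Ifitm3 and Bst2 were the exceptions. The Irf7 start-site peak was absent from both young WT Cre lists and present in the other 7, a pattern shared by 9.19% of genes. Ifitm3 lacked a peak in both young WT Cre libraries and in young EC-K4KO 1, and Bst2 lacked one in young WT Cre 1. Irf7 stood at positions 8155 to 14136 where called and Ifitm3 at 7952 to 15819, so both were beyond the strongest 6157 peaks of each list. Bst2 stood at 4370 to 8774, and within the strongest 6157 in 5 of its 8 libraries, where position 1 is the peak with the highest −log10 p of its list. Positions beyond 6157 do not exist in the shortest list. Within the strongest 6157 peaks of each list, 6 or 7 of the 9 genes had a start-site peak in every library. The share of all protein-coding genes there was 19.8% to 24.8%.

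**Figure D1:**
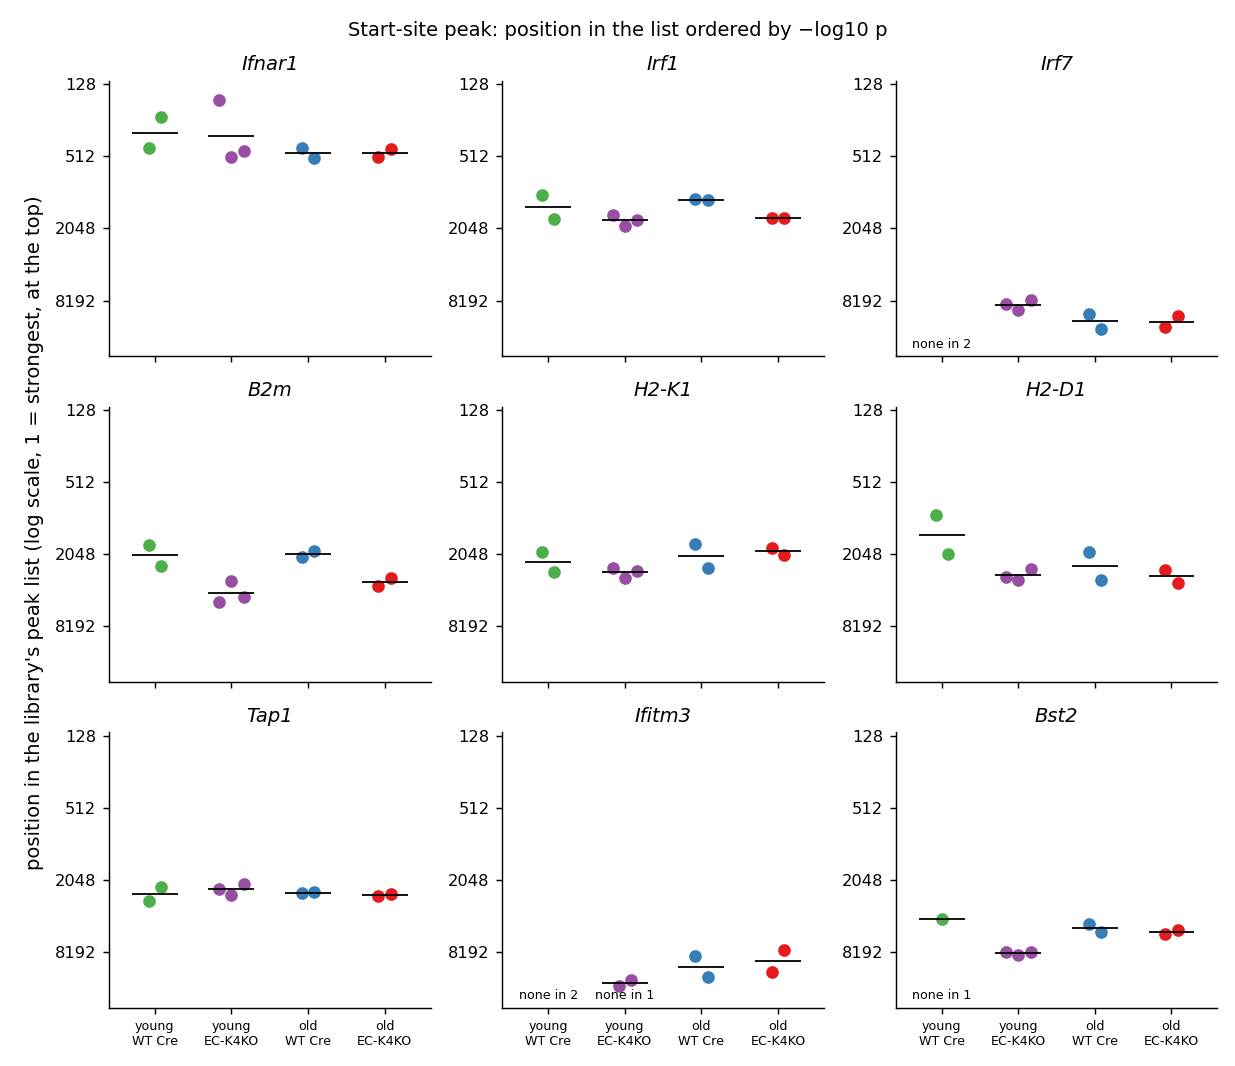
Position of the start-site peak of each gene in the peak list of each library (log scale, 1 is the strongest, at the top) for the 4 groups; points are libraries and bars geometric means. Ifnar1 stayed between positions 172 and 526, while B2m sat at 1704 to 2583 in the WT Cre libraries and 3263 to 5153 in the EC-K4KO libraries.

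Ifnar1, which encodes a chain of the type I interferon receptor, had the strongest promoter of the 9 genes and did not separate the groups by position. Its start-site peak ranked 439 and 238 in young WT Cre, 172, 520 and 465 in young EC-K4KO, 435 and 526 in old WT Cre, and 522 and 448 in old EC-K4KO. The groups overlapped, and the position ratio of EC-K4KO to WT Cre over both ages was 1.04 (exact stratified permutation test, two-sided, p = 0.85), which turned to a log2 difference of -0.89 on the percentile scale. Its width set young WT Cre apart, and in young mice 78.1% of all genes had wider EC-K4KO peaks without overlap. The peak covered 275 and 299 bp in young WT Cre, where its downstream edge lay at -21 and -19 bp and so short of the RefSeq start, and 581, 661 and 693 bp in young EC-K4KO. It covered 717 and 724 bp in old WT Cre and 735 and 695 bp in old EC-K4KO. The young WT Cre peaks were the narrowest, and the old groups overlapped. The ratio of widths between genotypes was 2.24 in young and 0.992 in old mice, and the difference between those ratios gave p = 0.05 by exact permutation (adjusted p = 0.384 over 2279 genes).

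Irf1, an interferon-induced transcription factor that drives class I transcription, had a wider promoter peak in EC-K4KO at both ages. Its promoter peak stood at positions 1161 and 1195 in old WT Cre and at 1676 and 1660 in old EC-K4KO, so the old groups did not overlap. In young mice it stood at 1067 and 1696 in WT Cre and at 1569, 1936 and 1743 in EC-K4KO, which overlapped. Over both ages the position ratio was 1.35 (exact permutation p = 0.05, Benjamini-Hochberg adjusted p = 0.398 over 2279 genes). As a percentile of the list the old difference kept its direction, with 2.65 and 3.67 in WT Cre and 3.72 and 4.25 in EC-K4KO, while the young one turned, with 17.3 and 17.7 in WT Cre and 6.23 to 7.65 in EC-K4KO. The peak was 359 and 698 bp wide in young WT Cre and 710, 807 and 750 bp in young EC-K4KO. In old mice it was 668 and 629 bp wide in WT Cre and 807 and 808 bp in EC-K4KO. EC-K4KO peaks were thus wider at each age without overlap, with a ratio of 1.37 (exact permutation p = 0.0167, the smallest that 60 arrangements allow, adjusted p = 0.0625). The same held for 34.9% of the 2279 genes tested. The log2 difference in width was 0.455 with all libraries, 0.215 without young WT Cre 1 and 0.694 without young WT Cre 2. In old mice alone the ratio was 1.25.

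B2m encodes the light chain that every class I molecule shares, and its start-site peak separated the genotypes in both measures. It stood at positions 1704 and 2583 in young WT Cre and at 5153, 3440 and 4660 in young EC-K4KO. In old mice it stood at 2150 and 1921 in WT Cre and at 3807 and 3263 in EC-K4KO. The genotypes did not overlap at either age, and EC-K4KO peaks were 2.08 times farther down the list in young mice and 1.73 times in old mice. Over both ages the ratio was 1.9 (exact permutation p = 0.0167, adjusted p = 0.32 over 3975 genes). B2m was the only one of the 6 genes tested that separated in this way, against 5.16% of all genes tested. As a percentile of its list the young order turned, with 27.7 and 26.9 in WT Cre and 21.6, 13.6 and 16.7 in EC-K4KO. The old order did not turn, with 4.9 and 5.9 in WT Cre and 8.46 and 8.35 in EC-K4KO. The −log10 p that sets a position is an average over the whole broad peak, and B2m peaks were also wider in EC-K4KO; its part in the shift was not tested.

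The width of the B2m peak set old EC-K4KO apart from all other groups. The peak was 333 and 300 bp wide in young WT Cre and 421, 597 and 592 bp in young EC-K4KO. It was 679 and 547 bp wide in old WT Cre and 1468 and 1364 bp in old EC-K4KO. Its upstream edge lay between -195 and -349 bp from the RefSeq start in all 9 libraries. Its downstream edge lay 95 to 395 bp past the start in the other 7 libraries and 1118 and 1113 bp past it in old EC-K4KO. The added stretch, chr2:122148083-122148800 (GRCm38), was 718 bp long and lay within intron 1 of the 4-exon B2m transcript. Old EC-K4KO exceeded old WT Cre 2.32 times in width, and the young ratio was 1.68. Over both ages the ratio was 1.97 (exact permutation p = 0.0333, adjusted p = 0.0817). Wider EC-K4KO peaks at both ages without overlap were found for 33.5% of all genes tested.

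Irf7, the factor that amplifies type I interferon production, had its widest peaks in the same libraries, also through its downstream side. Its peak was 389, 488 and 486 bp wide in young EC-K4KO, 596 and 604 bp in old WT Cre, and 1336 and 1226 bp in old EC-K4KO. The downstream edge lay 337 to 473 bp past the RefSeq start in the first 5 of these libraries and 1192 and 1076 bp past it in old EC-K4KO. The added 603 bp, chr7:141265348-141265950, ran from within exon 2 across the next intron and exon 3 to just past it. Position did not follow, with 10534 and 14136 in old WT Cre against 13558 and 11101 in old EC-K4KO, which overlapped.

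**Figure D2:**
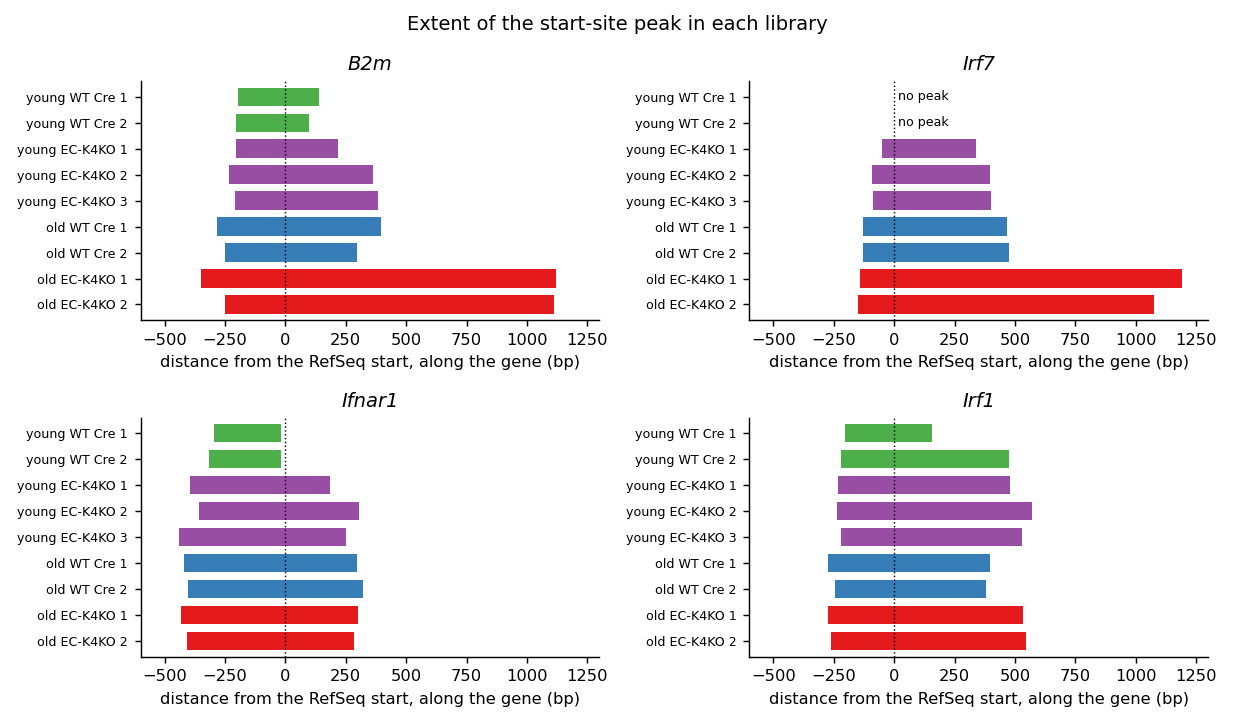
Extent of the start-site peak of B2m, Irf7, Ifnar1 and Irf1 in each library, as distance from the RefSeq start along the gene (bp); each bar is 1 peak and the dotted line is the start. In old EC-K4KO the B2m and Irf7 peaks reached more than 1000 bp past the start, whereas the Ifnar1 peaks ended 285 to 321 bp past it in all old libraries.

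A peak at least 2 times as wide in both old EC-K4KO libraries as in either old WT Cre library was uncommon. B2m (2.01, narrowest EC-K4KO over widest WT Cre) and Irf7 (2.03) reached that limit, and only 0.558% of 10395 genes did. The limit was chosen after both genes had been seen and lies just under their values. The other 7 genes ranged from 0.96 (Ifnar1) to 1.21 (Irf1), and none of the 47 pathway genes with peaks in all old libraries reached it. Start-site peaks of the pericyte and mural markers (5 and 3 of 10) and of the astrocyte markers (4 and 4 of 8) were also most frequent in these 2 libraries, and their part in the widths was not tested. Among old libraries alone, EC-K4KO peaks were wider without overlap for 5 of 9 genes (Irf1, Irf7, B2m, H2-D1 and Ifitm3), beside 42.8% of all genes. By position 3 of 9 (Irf1, B2m and Tap1) were farther down in old EC-K4KO beside 22.7% of all genes, and 0 of 9 were nearer the top beside 16.7%. As percentiles the old Tap1 values overlapped.

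The class I heavy chain genes H2-K1 and H2-D1 present peptides to cytotoxic T cells. Their promoter widths mainly separated young WT Cre from the rest. In young mice alone EC-K4KO peaks were wider without overlap for 78.1% of all genes. The H2-K1 peak was 477 and 476 bp wide in young WT Cre and 1034, 887 and 674 bp in young EC-K4KO, and then 720 and 710 bp in old WT Cre and 714 and 737 bp in old EC-K4KO. The H2-D1 peak was 317 and 280 bp wide in young WT Cre and 934, 771 and 784 bp in young EC-K4KO, and then 622 and 713 bp in old WT Cre and 740 and 732 bp in old EC-K4KO. For both genes the young EC-K4KO libraries included the widest peak of all 9. The genotype ratio of H2-D1 widths was 2.77 in young and 1.11 in old mice, without overlap at either age (exact permutation p = 0.0167, adjusted p = 0.0648), beside 33.5% of all genes tested. For H2-K1 it was 1.79 and 1.01, and the old groups overlapped (exact permutation p = 0.0667, adjusted p = 0.116).

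Positions of the heavy chain genes were less clear. H2-D1 ranked 971 and 2042 in young WT Cre and 3157, 3340.5 and 2749 in young EC-K4KO, and 1975 and 3353 in old WT Cre against 2762 and 3565 in old EC-K4KO. The young groups did not overlap and the old groups did. Over both ages the log2 difference was 0.71 (exact permutation p = 0.05, adjusted p = 0.387), and it turned to -0.24 on the percentile scale. H2-K1 ranked 1962 and 2909 in young WT Cre, 2666, 3270 and 2840 in young EC-K4KO, 1685 and 2697 in old WT Cre and 1824 and 2069 in old EC-K4KO, and overlapped at both ages. Its log2 difference between genotypes over both ages was 0.08 by position and -0.87 as a percentile. In young mice B2m and H2-D1 were the 2 of 6 genes farther down without overlap, beside 17.4% of all genes. H2 class I genes are near-identical copies and reads of low mapping quality were removed by the authors, so values at H2-K1 and H2-D1 carry that uncertainty.

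Tap1, a subunit of the peptide pump, shares a bidirectional promoter with Psmb9, an inducible proteasome subunit, and one peak served both genes. Its positions were 3055 and 2353 in young WT Cre, 2467, 2744 and 2211 in young EC-K4KO, 2639 and 2600 in old WT Cre, and 2804 and 2713 in old EC-K4KO. The groups overlapped, and the genotype ratio of positions was 0.984 (exact permutation p = 0.817). As a percentile of the list, however, the peak stood at 49.6 and 24.5 in young WT Cre, at 7.9 to 10.8 in young EC-K4KO and at 6.01 to 7.99 in the 4 old libraries, a log2 difference of -0.97 between genotypes and -1.44 between ages. It was 492 and 440 bp wide in young WT Cre and 875 to 1016 bp wide in the other 7 libraries. On the side of Psmb9 the peak began between -570 and -549 bp from the Tap1 start in those 7 and at -234 and -249 bp in young WT Cre. On the side of Tap1 it ended 304 to 445 bp past the start in those 7 and 257 and 190 bp past it in young WT Cre.

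Ifitm3 restricts viral entry at membranes and Bst2 tethers budding virions. The Ifitm3 start-site peak was 207 and 265 bp wide in young EC-K4KO 2 and 3, 283 and 268 bp in old WT Cre, and 448 and 330 bp in old EC-K4KO, and the old groups did not overlap. The Bst2 peak was 410 bp wide in young WT Cre 2 and 190, 473 and 522 bp in young EC-K4KO, and 534 to 568 bp in all 4 old libraries. By position Bst2 stood at 4370 in young WT Cre 2 and at 8243, 8774 and 8270 in young EC-K4KO, and as a percentile the order turned, with 45.5 against 34.6, 34.7 and 29.5. In old mice it stood at 4835 and 5633 in WT Cre and at 5759 and 5404 in EC-K4KO, which overlapped, with fold enrichments of 8.39 and 9.04 and of 10.95 and 10.47.

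**Figure D3:**
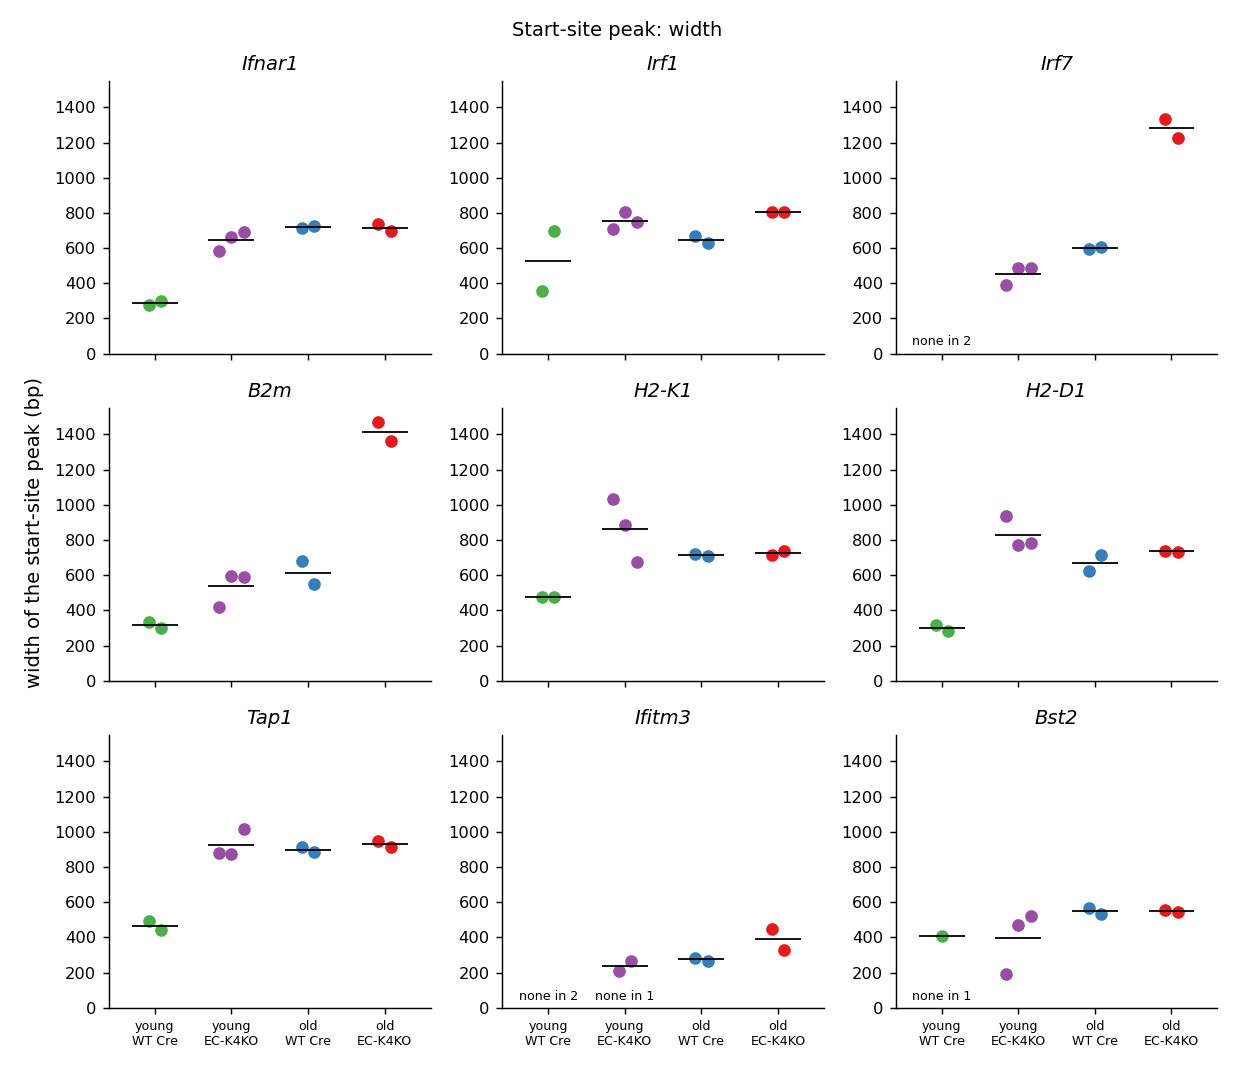
Width of the start-site peak (bp) of each gene in each library by group; points are libraries and bars means. The 4 widest values of B2m and Irf7 were the old EC-K4KO libraries at 1226 to 1468 bp, and for Ifnar1, H2-K1, H2-D1 and Tap1 the young WT Cre libraries were the narrowest.

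Peak widths differed between groups across the genome, which is the background for the widths of these genes. Over genes with a start-site peak in all 9 libraries the median width was 391 and 465 bp in young WT Cre, 617 to 710 bp in young EC-K4KO, 703 and 708 bp in old WT Cre, and 757 and 746 bp in old EC-K4KO. EC-K4KO peaks were wider at both ages without overlap for 3 of the 6 genes tested (Irf1, B2m and H2-D1) and for 33.5% of all genes tested. In young mice alone all 6 were wider without overlap, as were 78.1% of all genes. Old peaks were wider in both genotypes for 2 of 6 (Ifnar1 and B2m), against 46.6% of all. With the class label the same tests covered Irf1 and Ifnar1 only, where wider EC-K4KO peaks made up 34.9% and wider old peaks 44.3% of genes. Over age, B2m showed the largest difference of the 6, with old peaks 2.27 times as wide (exact permutation p = 0.0167, adjusted p = 0.0792), and Ifnar1 followed with 1.67 times (exact permutation p = 0.0333, adjusted p = 0.0855). By these exact permutation tests 0 of 3975 genes passed an adjusted p of 0.05 for width, although 1622 for genotype and 1640 for age had an unadjusted p under that limit. For position 0 passed as well, and 382 and 1111 had an unadjusted p under it.

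By position in the list, age did not separate the promoters of these genes without overlap, while as percentiles it did for 5 of 6. Old libraries were farther down in both genotypes for 0 of the 6 genes, beside 18.9% of all genes, and nearer the top for 0 of 6, beside 8.91%. The largest age difference was that of Ifnar1, with old peaks 1.44 times farther down (exact permutation p = 0.317), and the next was H2-D1 with 1.37 times (exact permutation p = 0.317). On the percentile scale all 6 genes stood nearer the top in old libraries, by -0.98 (Ifnar1) to -1.88 (H2-K1) on the log2 scale, with a median of -1.34 over all genes. Irf1, B2m and H2-K1 passed an adjusted p of 0.05 there by exact permutation, as did 37.3% of genes with the class label (for Irf1) and 34% of genes by start site (for B2m and H2-K1). Of the 6 genes 0 were then farther down in old libraries without overlap and 5 nearer the top, beside 0.101% and 50.7% of all genes by start site. The genotype effect on position did not differ between ages beyond the spread for any of the 6, with exact permutation p from 0.317 (Tap1) to 0.883 (Ifnar1).

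Away from the promoters, the peaks of these genes merged into 15 distal regions beside the 9 start-site regions. Irf1 had 8 of them, Ifnar1 had 3, and H2-K1, H2-D1, Ifitm3 and Bst2 had 1 each, while B2m, Irf7 and Tap1 had none. None of the 15 was in both young WT Cre lists, 2 were in 1 of them and 13 in neither. In old WT Cre 10 were in both libraries, and in old EC-K4KO 11 were. All 6 regions found in all 9 lists were start-site regions. Over all 92495 merged regions, 5.27% were in all 9. No such share was taken over distal regions alone, and the young WT Cre lists were the shortest.

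The Irf1 regions lay in a row downstream of the gene, centred 10.3, 18.3, 25.5, 26.9, 29.4, 36.1, 39.5 and 43.4 kb past its start. The last 7 lay within the span of Gm12216, a predicted gene on the opposite strand. The authors' annotation put all 7 in introns, while those at 39.5 and 43.4 kb overlapped exons of some Gm12216 transcripts in GENCODE. The regions at 36.1 and 43.4 kb were in 8 of 9 lists, missing only from young WT Cre 1, those at 18.3 and 26.9 kb in 6, and the other 4 in 1 to 3. The annotation gave Irf1 0 and 2 distal peaks in young WT Cre, 2, 5 and 5 in young EC-K4KO, 5 and 5 in old WT Cre and 7 and 6 in old EC-K4KO.

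**Figure D4:**
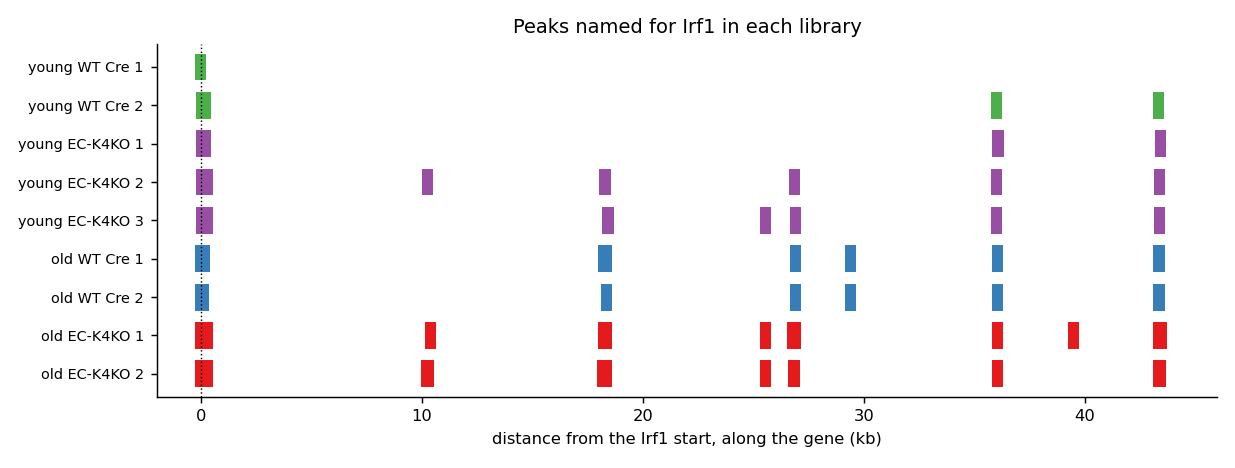
Peaks named for Irf1 in each library by distance from the Irf1 start along the gene (kb); each bar is 1 peak, drawn at least 0.5 kb wide, and the dotted line is the start. Peaks at 36.1 and 43.4 kb recurred in 8 of 9 libraries, and the row was fullest in old EC-K4KO with 7 and 6 distal peaks.

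Both recurrent Irf1 regions stood higher in old EC-K4KO than in old WT Cre. At 43.4 kb the peak stood at position 8855 in young WT Cre 2, at 8797, 7694 and 10643 in young EC-K4KO, at 8400 and 10411 in old WT Cre, and at 5297 and 5563 in old EC-K4KO. The old EC-K4KO libraries were the 2 highest of the 8, and the old groups did not overlap. As a percentile of the list they also did not overlap, with 19.1 and 32 in old WT Cre and 11.8 and 14.2 in old EC-K4KO. Its fold enrichment was 6.55 and 6.15 in old WT Cre and 9.66 and 9.29 in old EC-K4KO. At 36.1 kb the peak stood at 5978 in young WT Cre 2, at 8237, 6874 and 6288 in young EC-K4KO, at 7410 and 7375 in old WT Cre, and at 6296 and 6264 in old EC-K4KO. Of the 8 regions near these genes called in all 4 old libraries, these 2 stood nearer the top in old EC-K4KO. That share was close to the 24% of 13417 distal regions. By position the region at 18.3 kb went the other way, from 5961 and 7143 to 7813 and 9320, as did the Ifnar1 region 9.6 kb upstream and the H2-D1 region 4.8 kb upstream, which made 3 of 8 beside 27.5% of all. As percentiles of the list the old groups overlapped at all 3, for example 13.6 and 21.9 against 17.4 and 23.8 at 18.3 kb. With 2 libraries a group the smallest exact p is 0.33, so these old differences were not tested.

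The stretches that all 8 libraries with a peak had in common are shown because they are the most recurrent distal sites of the 9 genes (GRCm38, plus strand, no capitals because no ISRE, GAS or NF-kB letters were found).
Irf1 at 36.1 kb, chr11:53805946-53806128: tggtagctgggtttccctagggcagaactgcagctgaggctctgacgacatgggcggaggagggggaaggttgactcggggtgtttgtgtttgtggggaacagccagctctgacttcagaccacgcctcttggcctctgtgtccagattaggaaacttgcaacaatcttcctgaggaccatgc
Irf1 at 43.4 kb, chr11:53813284-53813464: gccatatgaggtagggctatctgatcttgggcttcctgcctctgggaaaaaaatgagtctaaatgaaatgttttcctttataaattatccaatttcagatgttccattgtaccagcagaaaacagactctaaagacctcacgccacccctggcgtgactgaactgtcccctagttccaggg
None of the 5 motifs searched was in either stretch. In central windows of 183 bp of all 92495 merged regions, ISRE letters were in 5.41%, GAS in 5.94%, NF-kB in 8.19%, KLF-type letters in 13.8% and CRE in 0.457%.

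The remaining distal regions were weaker or fewer. The H2-D1 region 4.8 kb upstream was in all 4 old lists and in no young list, at positions 15130 to 18773. The Ifnar1 region 9.6 kb upstream and the Bst2 region 8.8 kb downstream were in 6 lists each, the H2-K1 region 8.2 kb downstream in 4. The Ifitm3 region 1.8 kb downstream, past the end of the gene, was in 6 lists and stood nearer the top than the gene's own start-site peak in 5 of those 6, for example at 6392 and 7120 in old WT Cre. The exception was old EC-K4KO 2, at 8949 against 7952.

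Old libraries had more peaks outside the promoter-TSS class for Irf1 (by 3.25 peaks), Ifnar1 (by 1.67) and H2-D1 (by 1), with no overlap in either genotype. The exact permutation p was 0.05 for Irf1 and 0.0167 for the other 2 (adjusted p = 0.13 and 0.075 over 12554 genes). Among the strongest 6157 peaks of each list the differences were 0.5 peaks for Irf1 and 0 for Ifnar1 and H2-D1 (adjusted p = 1 by exact permutation). These were 3 of the 7 genes tested, beside 27.5% of all genes. For genotype 0 of 7 separated, beside 5.62% of all genes, and the largest difference was that of Irf1, 2.25 more peaks in EC-K4KO (exact permutation p = 0.05, adjusted p = 0.437), which was 0 among the strongest 6157 peaks. Of the 24 regions, 7 were in at least 2 young EC-K4KO libraries and in no young WT Cre library (10.2% of all regions), 10 in both old WT Cre (17.4%) and 11 in both old EC-K4KO (26.6%). Only 10 of the 24 regions had a peak among the strongest 6157 of any list. There these counts were 0, 0 and 1, beside 7%, 7.3% and 8.31% of 10077 regions.

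A wider list of 63 interferon and class I genes, chosen with earlier results of these data known, gave the setting. A start-site peak was called for 18 and 27 of them in young WT Cre, 36 to 45 in young EC-K4KO, 48 and 50 in old WT Cre and 50 and 49 in old EC-K4KO. The share of all protein-coding genes ran from 19.8% in young WT Cre 1 to 53.5% in old EC-K4KO 1. Among the strongest 6157 peaks the list had 16 to 22 genes in every library, or 25.4% to 34.9%. The share of all protein-coding genes there was 19.8% to 24.8%. The pattern of Irf7, a peak in all lists but the young WT Cre lists, was found for 7 of the 63, beside the 9.19% of all genes given above. Among them were Ifit1 and Eif2ak2, which encode antiviral effectors that act on foreign RNA, and the nonclassical class I genes H2-T23 and H2-M3.

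Of the 63 genes, 15 had a start-site peak in all 9 libraries. Their EC-K4KO peaks were farther down the list at both ages for 0 of 15, beside 5.16% of all genes, and nearer the top for 1, beside 3.12%. That gene was Jak2, a kinase bound to cytokine receptors (exact permutation p = 0.0667, adjusted p = 0.423). Jak2 stood at 3174 and 6398 in young WT Cre, 784, 3099 and 2892 in young EC-K4KO, 7317 and 5711 in old WT Cre, and 4361 and 4794 in old EC-K4KO. The median log2 difference in position between genotypes was -0.12 over the 15 genes, 0.26 over the 6 genes followed here and 0.02 over all genes tested.

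With age, 3 of the 15 stood farther down without overlap, beside 18.9% of all genes, and 3 nearer the top, beside 8.91%. Socs3, a feedback inhibitor of JAK signalling, stood between 603 and 1745 in young libraries and between 2319 and 3741 in old ones. Psme2, a proteasome activator subunit, stood at 394 to 760 in young and 1132 to 1820 in old libraries, and Socs1, another inhibitor of JAK signalling, at 4231 to 7786 and 7971.5 to 9579. Stat2, which joins IRF9 at the ISRE, went the other way, at 801 to 1591 in young libraries and 388 to 553 in old ones. The class I folding chaperones Calr and Canx also stood nearer the top in old libraries, Calr at 282 to 491 against 527 to 851 and Canx at 848 to 946 against 1006 to 2066. Their exact permutation p ran from 0.0167 to 0.0333 and adjusted p from 0.0967 to 0.119. As percentiles of the lists 0 of the 15 were farther down in old libraries and 7 nearer the top, beside 50.7% of all genes. There Socs3, Psme2 and Socs1 no longer separated, with log2 differences of 0.09, -0.23 and -0.93, while Stat2, Calr and Canx stood nearer the top by -2.64, -2.35 and -2.31. EC-K4KO peaks were wider without overlap at both ages for 7 of 15 genes, led by Irf9, Mavs and Irf3, and old peaks for 7 of 15, led by Mavs, Socs3 and Irf9, beside the 33.5% and 46.6% of all genes. The median log2 difference in width between genotypes was 0.38 over the 15 genes and 0.34 over all genes tested.

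The gene whose promoter position followed that of Irf1 most closely over the 9 libraries was Rasl11a, with Pearson r = 0.961, and for Ifnar1 it was Arl6ip6, with Pearson r = 0.893. These are descriptions over 9 libraries that share groups and list lengths, picked from 2278 genes.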

How the data were processed

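Omni-ATAC-seq peaks of 9 libraries in 4 groups were analysed, grouped by their titles. The authors trimmed reads, aligned them with Bowtie2 to mm10 (GRCm38), removed duplicates and reads of low mapping quality, and called broad peaks in each library with MACS2 in paired-end mode. The deposited broad peak files give a score, a fold enrichment (ratio) and −log10 p and −log10 q averaged over each peak, and the deposited annotation gives the nearest gene and a class. No read counts were used, so depth is unknown and no count model was fitted.

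The members and gene lists were chosen with earlier results of these data known. Peaks of a list were ordered by −log10 p, and a gene took its strongest promoter-TSS peak. Log2 position, log2 width and the number of other peaks were compared between genotypes within each age and between ages within each genotype. The exact permutation test was two-sided and exchanged libraries only within a stratum (60 arrangements, smallest p = 0.0167), followed by Benjamini-Hochberg adjustment over all genes tested. "Without overlap" means that all libraries of one group lay on the same side of all of the other, in both strata. Distal counts used genes with such a peak in at least 3 libraries. Peaks sharing 1 bp were merged into regions. Start-site peaks lay within 100 bp of a start from GENCODE M21 or RefSeq (both GRCm38), and this definition, the analysis of old libraries alone and the limit of 2 on width were added after the data had been seen. All 9 promoter windows matched the genome sequence at their coordinates. Named pathway genes were the at most 6 per comparison, without overlap, with the largest difference, plus, after their values were seen, some of those with a peak in all libraries but young WT Cre. The code was tested on simulated data. Python 3.11.15, numpy 2.4.6 and pandas 2.3.3 were used. Alternatives were ranking by fold, percentile of the list, position among shared promoters, peaks within 1000 bp of a start, summed width, the strongest 6157 peaks, q under 0.05, each library left out, and same-numbered libraries paired.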

Additional observations from a re-analysis of the deposited data

How the results depend on the processing

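Over all genes, the share without overlap for promoter position was 7.99% for genotype, 15.4% when peaks were ordered by fold, 21.9% as percentiles and 9.21% to 15.1% with 1 library left out, which lets groups of fewer libraries separate more easily. For age it was 29% and became 44% by fold and 53.5% as percentiles. The directions shifted too: for age 411 genes were farther down and 251 nearer the top by position, against 3 and 1216 as percentiles, and for genotype 108 and 74 against 1 and 499. On the percentile scale, where list length enters directly, the genotype difference (log2) turned to -0.507 for Irf1, -0.887 for Ifnar1, -0.0205 for B2m, -0.868 for H2-K1 and -0.239 for H2-D1, and went from -0.0236 to -0.968 for Tap1. The age difference turned to -0.98 for Ifnar1, -1.05 for H2-D1 and -1.44 for Tap1. There Irf1 (-1.63, adjusted p = 0.0447), B2m (-1.68, adjusted p = 0.049) and H2-K1 (-1.88, adjusted p = 0.049) passed the threshold for age by the exact permutation test, as did 850 of 2279 genes with the class label and 1353 of 3975 by start site. By fold, the genotype difference turned to 0.239 for Tap1 and the age difference to 0.818 for Irf1, 0.668 for B2m and 0.419 for H2-K1, and the cause was not tested. Tap1 turned to -0.0513 for age among promoters found in all libraries. Leaving out 1 library gave genotype position differences of -0.163 to 0.311 for Ifnar1, -0.0932 to 0.246 for H2-K1 and -0.118 to 0.0706 for Tap1, age position differences of -0.295 to 0.0396 for Irf1 and -0.0297 to 0.159 for Tap1, and an age width difference of -0.00454 to 0.475 for Irf1. For B2m that range was 0.774 to 1.07 for position and 0.902 to 1.06 for width between genotypes.

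The share of genes with separated distal numbers was 5.62% for genotype, 0.127% among the strongest 6157 peaks and 6.07% to 11.1% with 1 library left out, and for age 27.5% and 0.916% among the strongest peaks. H2-K1 turned to -0.0833 for genotype with peaks over 1000 bp from the start and to -0.333 for age among the strongest peaks. The share of genes with an unadjusted p under 0.05 for the genotype effect on position by age was 6.36%, 4.08% by fold, and 0% to 7.63% with 1 library left out; 0% arose where the smallest possible p was 0.0556. Regions gained over young WT Cre numbered 11 for the old knockouts (1 among the strongest 6157 peaks), 10 for the old controls (0 there) and 7 for the young knockouts (0 there), the last ranging from 1 to 10 with 1 library left out. Only 10 of the 24 regions had a peak among the strongest 6157. With 1 library left out 322 values kept their direction and side of the threshold and 11 reversed.

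Over 12 pairs of same-numbered libraries the correlation of their deviations ran from -0.022 to 0.118, and 3 were over 0.1. Between groups of 2 libraries both pairs gave the same value (0.037, 0.006 or 0.115). The 12 pairs were thus not separate observations, and they cannot settle whether same-numbered libraries belong together. With the replicate number as a block, which drops young EC-K4KO 3 and whose exact test cannot go below p = 0.125, 20% of genes separated for genotype by position and 9.69% by distal number, and the genotype position difference turned to -0.0482 for Ifnar1 and 0.0156 for Tap1.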
